A study of Mus musculus with 18 samples.

Results

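The enteric nervous system is the network of neurons and glia in the wall of the gut, and 33 genes that mark its cells were followed through the development of colitis in mice that lack interleukin 10 (Il10KO). The members were taken by symbol from a list of enteric neuron and glia genes, and all 33 were among the 16321 genes of the deposited gene table. They fell into 24 neuronal genes, 5 glial genes and 4 receptor genes for neurotrophic factors and endothelin. Distal colon RNA was sequenced from BALB/c wild-type (WT) mice at week 6 and from BALB/c Il10KO mice at weeks 6, 8, 10, 12 and 14. Each of the 6 groups held 3 mice, which made 18 libraries, 15 of them from the knockout. The labels name no other allele or agent, and say nothing of the knockout beyond its name. The biopsies were short pieces of distal colon, not sorted cells.

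Enteric neurons lie in the myenteric plexus between the muscle layers and in the submucosal plexus, and they drive motility, secretion and blood flow. They descend from neural crest cells that need the receptors Ret and Ednrb to colonise the gut, and enteric glia, which carry Sox10, S100b and Gfap, surround them in the ganglia. Excitatory motor neurons use acetylcholine and tachykinins, and inhibitory motor neurons use nitric oxide and vasoactive intestinal peptide. Interleukin 10 restrains responses to gut bacteria, and mice without it develop colitis.

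Libraries held 26495521 to 35497101 counts. The RNA integrity number (RIN), a scale of RNA quality on which higher is better, was 8.4 or more in 16 libraries, but 6.5 and 5.8 in replicates 2 and 3 of week 14. Those libraries also stood apart in transcript length: the mean length of the transcripts counted was 1651 and 1856 bases there, against 3061, 3066 and 3074 bases in the Il10KO libraries of week 6. It was also shorter in every library of week 10 (2425, 2382 and 2868 bases) and of week 12 (2366, 2444 and 2625 bases), and 2941 bases in replicate 1 of week 14. Results that rest on the low-RIN libraries are therefore given with and without them, and without them week 14 is 1 library. The lipocalin value in the labels, a marker of gut inflammation, ranged from 2.27 to 4.72 ng/g at week 6 of the knockout, from 102 to 136 ng/g at week 8, from 339.5 to 554 ng/g at week 10, from 444 to 2574 ng/g at week 12 and from 2044 to 4289 ng/g at week 14. No WT group older than week 6 was analysed here, so age and colitis cannot be told apart. All WT mice came from cage G, which held no knockout, so cage and genotype cannot be told apart.

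Levels are given as CPM, counts scaled to library depth with TMM factors, and levels of different genes are compared only as TPM, which also corrects for transcript length. Where 3 values stand together they are replicates 1, 2 and 3, and a week in parentheses is that of Il10KO. At week 6 of the knockout the TPM of the 33 members ran from 63.0 for Erbb3 through 43.4 for Tac1, 35.6 for Uchl1 and 34.6 for Vip to 0.157 for Chat. The order of these first 4 genes was not settled, because each overlapped the next over the 3 mice. The defining glial markers were present but low, with 2.61 TPM for Gfap, 2.23 for Sox10, 1.62 for S100b and 1.39 for Cdh19. Erbb3, the neuregulin receptor that glia need, stood far above those 4, and it is also made by gut epithelium. Neuronal markers were present throughout, and L1cam (20.3 TPM), Prph (17.8 TPM), Stmn2 (17.2 TPM) and Scg2 (11.9 TPM) followed Vip. In bulk tissue, fewer cells of a type and less RNA per cell cannot be told apart.

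**Figure D1:**
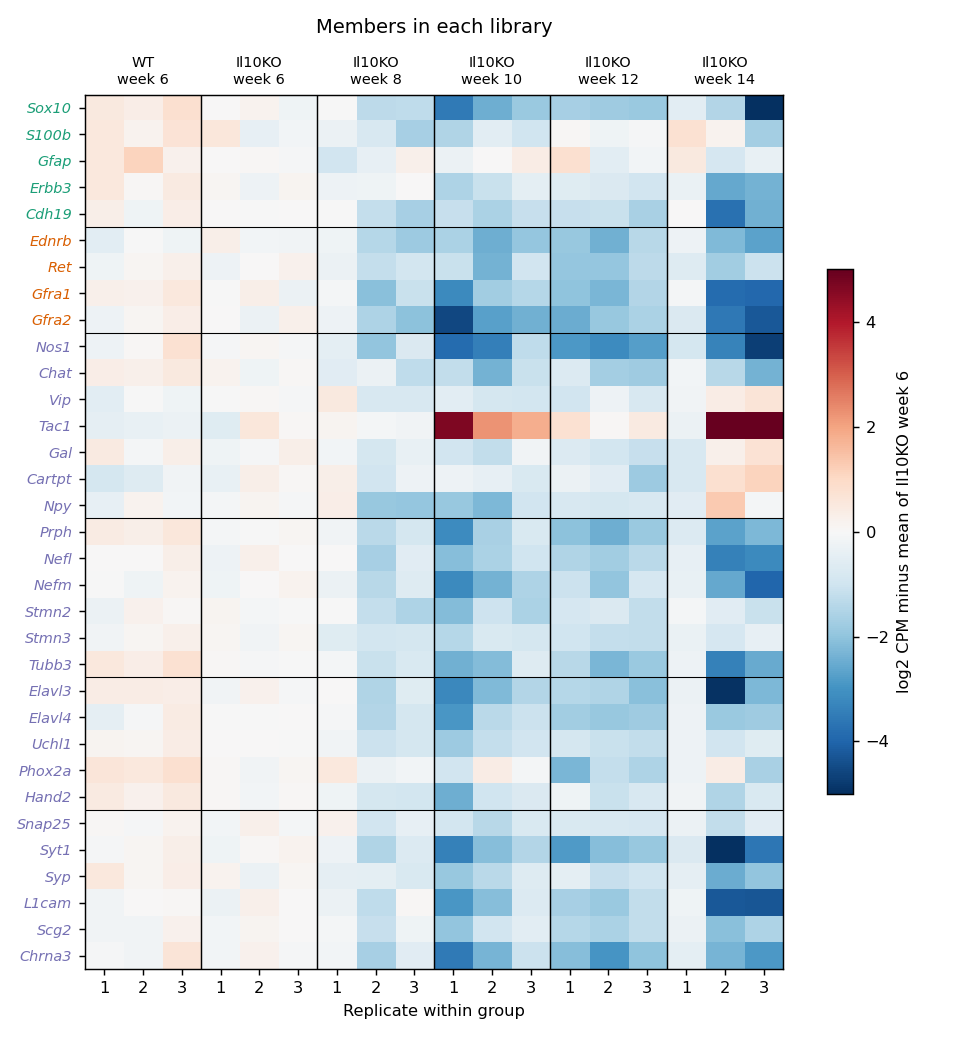
Log2 CPM of each of the 33 members (rows, by role; green names are glial, orange receptor, purple neuronal) in each of the 18 libraries (columns, by group and replicate), minus the mean of the 3 Il10KO libraries of week 6; colours saturate at 5 on either side. Blue fills the week 10 and week 12 columns for most members, replicate 1 of week 14 stays near 0, and Tac1 alone is deep red in replicate 1 of week 10 and replicates 2 and 3 of week 14.

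At week 6, when lipocalin was low, no difference between knockout and WT passed the test in these genes. None of the 33 members was called at week 6 of Il10KO against WT by edgeR's quasi-likelihood test at an adjusted p of 0.05. The share of all 16300 genes called there was 0.0%, 0 members had an unadjusted p of 0.05 or less, and DESeq2 called 0 members and 0.153% of all genes as higher. The median log2 change of the members was -0.17, with a range from -0.68 to 0.61. In 9 members every knockout value lay below every WT value, which 13.1% of all genes did, and those 9 included Sox10, Gfap, Prph, Tubb3, Uchl1 and Hand2. Gfap, the intermediate filament of glia, measured 5.99, 9.03 and 4.76 CPM in WT and 4.13, 4.27 and 3.95 CPM in the knockout. The groups stood apart but close, and the log2 change was -0.68 with an SE of 0.43.

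At week 8 most members lay below their week 6 mean, 25, 33 and 30 of the 33 in replicates 1, 2 and 3, and none passed the test in edgeR. Relative to the week 6 mean, the members' median log2 CPM was -1.18 in replicate 2 and -0.77 in replicate 3, against -0.15 in replicate 1. The estimates were negative for 32 of the 33 members, with a median of -0.69, where the median of all genes was 0.03. In edgeR 0 members were called, against 0.0675% of all genes, 2 had an unadjusted p of 0.05 or less, and DESeq2 called 1, Stmn3, as lower, with 0.172% of all genes. The groups did not overlap, with week 8 lower, in 14 members, and 12.8% of all genes did the same.

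At week 10 most of these genes lay low, and the calls reached every class. There 14 of the 33 members fell and 1, Tac1, rose, by edgeR's quasi-likelihood test at an adjusted p of 0.05, where 9.48% of all genes fell and 14.6% rose. The median log2 change was -1.52 over the members and 0.01 over all genes tested, and 31 of the 33 estimates were negative. In 28 members all 3 mice of week 10 lay below all 3 of week 6, which 30.3% of all genes did. By class, 3 of 4 receptor genes, 4 of 6 cytoskeletal genes, 3 of 5 RNA-binding, transcription and pan-neuronal genes, 2 of 6 vesicle, adhesion and nicotinic receptor genes, 1 of 7 transmitter enzymes and peptides, and 1 of 5 glial genes fell, and the riser was a peptide. DESeq2 called 22 members lower and 1 higher, against 16.3% and 20.2% of all genes. Without the 2 libraries of low RIN, which are of week 14 but enter the shared fit, 28 members fell and 1 rose, against 26.8% and 24.6% of all genes.

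The number of calls at week 10 rested on single libraries. Leaving out replicate 3 of week 10 gave 21 calls, while leaving out replicate 1 or 2 of week 10 gave 1 and 5, and the shares of all genes called were 32.1%, 6.68% and 11.2% in that order. Leaving out replicate 1, 2 or 3 of week 6 gave 1, 4 and 2 calls, against 4.7%, 6.09% and 6.76% of all genes. With cage as a factor in the knockout libraries alone, edgeR called 0 of 32 members, 11 had an unadjusted p of 0.05 or less, and the members' median log2 change was -1.06. The later comparisons share the week 6 mice with this one, so their values are given side by side and not as independent evidence.

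**Figure D2:**
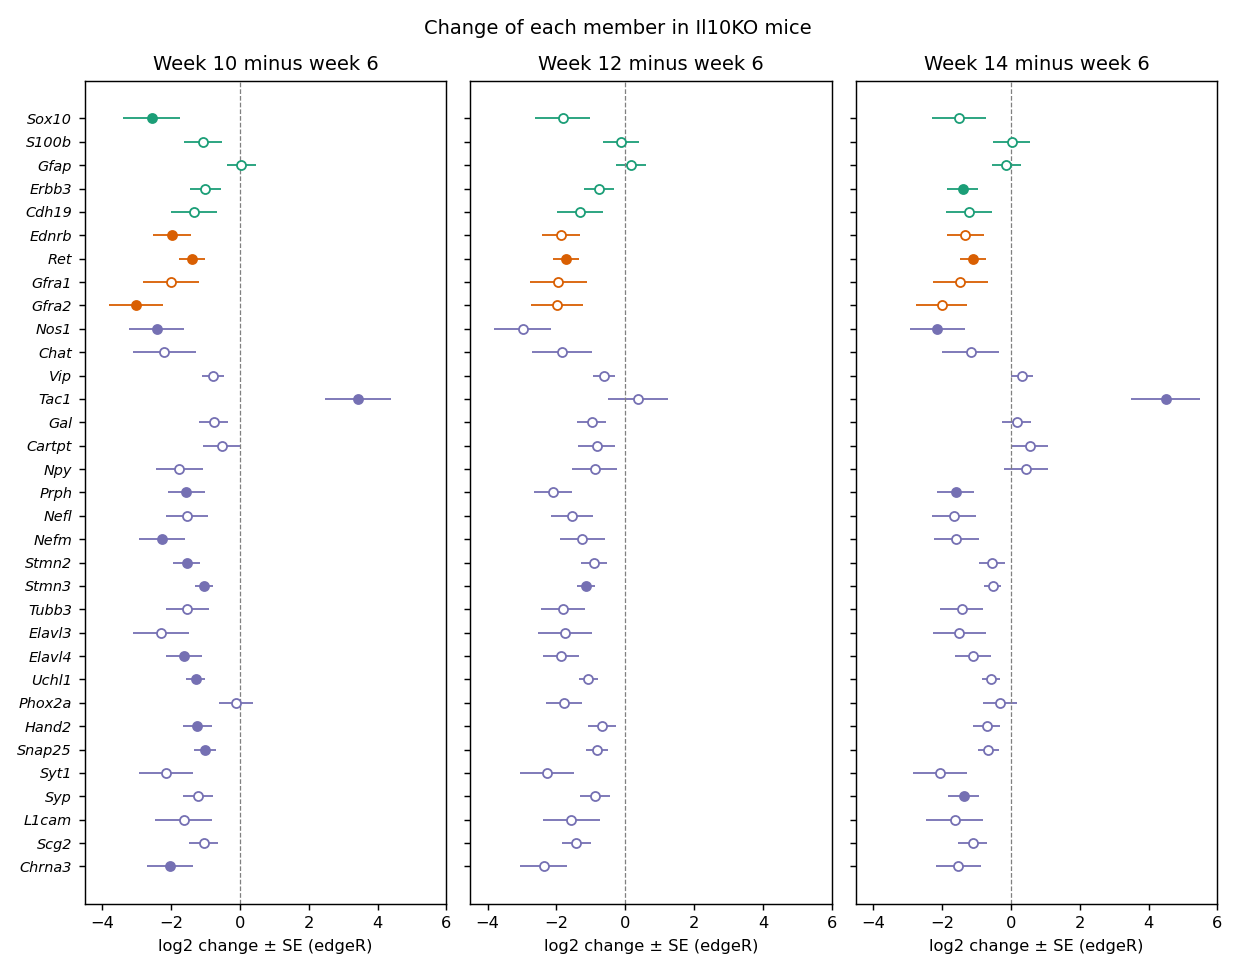
Log2 change of each member in Il10KO mice at weeks 10, 12 and 14 against week 6 from edgeR, with its SE (bars); filled points have an adjusted p of 0.05 or less, and colours mark glial (green), receptor (orange) and neuronal (purple) members. At week 10, 14 points are filled left of 0 and Tac1 is filled right of it at 3.43, and at week 12 only Ret and Stmn3 are filled.

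At week 12 the members' estimates lay near those of week 10, with a median log2 change of -1.42 against week 6, but only 2 members fell, Ret and Stmn3, where 0.491% of all genes fell. No member rose, and 1.36% of all genes did, so that 1.85% changed in either direction. DESeq2 called 14 members lower and none higher, against 6.66% and 8.77% of all genes. Without the low-RIN libraries 26 members fell, against 22.0% of all genes. In 29 members the week 12 mice all lay below the week 6 mice, which 32.9% of all genes did. Between weeks 12 and 10 no member was called by edgeR, against 0.448% of all genes, 2 had an unadjusted p of 0.05 or less, and DESeq2 called 2, Tac1 and Phox2a, as lower. Of all genes edgeR called 0.239% lower and 0.209% higher, and DESeq2 2.93% and 2.1%. The groups stood apart in 2 members with week 12 lower and in 2 with week 12 higher, against 12.0% and 11.7% of all genes.

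At week 14 replicate 1 stood apart from the other mice. With a RIN of 9 it lay near week 6, and its members' median was -0.31, whereas replicates 2 and 3 had medians of -1.85 and -1.96. Over the 3 mice 5 members fell (Erbb3, Ret, Nos1, Prph and Syp) and Tac1 rose, where 8.56% of all genes fell and 24.5% rose. In 20 members all week 14 mice lay below all week 6 mice, as 21.5% of all genes did, and in none did they all lie above, as 19.2% did. DESeq2 called 13 members lower and 1 higher, against 17.9% and 29.0% of all genes. Without the 2 low-RIN libraries edgeR called 0 members, against 0.0% of all genes, with 0 at an unadjusted p of 0.05 or less, and the remaining mouse gave a median log2 change of -0.32. Leaving out replicate 1 instead gave 24 calls, where 69.5% of all genes were called, and leaving out any other single library of weeks 6 and 14 gave 1, with 11.5 to 17.0% of all genes. Low RIN, short transcripts and the low levels of most members sat in the same mice, and their parts in the result cannot be told apart.

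Over the 5 knockout ages in 1 test, 9 members differed by edgeR's F-test, namely Ednrb, Ret, Gfra2, Nos1, Tac1, Prph, Stmn3, Uchl1 and Chrna3, where 27.4% of all genes did. DESeq2 called 24 of the 33, against 50.4% of all genes, and without the low-RIN libraries edgeR called 26, against 42.8%.

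The receptors through which neurotrophic factors and endothelin act on enteric neurons and their precursors were the class that lay lowest, with a median log2 change at week 10 of -1.98. Ret (chr6:118151745-118197718, minus strand) is the signalling receptor for the GDNF family, and it measured 10.4, 13.1 and 14.6 CPM in WT, 10.2, 12.2 and 14.2 (week 6), 9.99, 5.31 and 6.44 (week 8), 5.5, 2.29 and 6.23 (week 10), 3.09, 3.13 and 4.87 (week 12), and 7.82, 3.56 and 5.71 (week 14). Every mouse from week 8 on lay below every week 6 mouse, and the 3 WT mice (10.4, 13.1 and 14.6 CPM) overlapped week 6. Ret was the only member called at all of weeks 10, 12 and 14, with log2 changes of -1.39 (SE 0.38, adjusted p = 0.0232 in edgeR), -1.72 (SE 0.39, adjusted p = 0.0402 in edgeR) and -1.09 (SE 0.38, adjusted p = 0.0405 in edgeR). These calls did not survive an offset for each library's trend on transcript length, with which edgeR gave -0.79 (adjusted p = 0.0612), -1.14 (adjusted p = 0.0543) and -0.09 (adjusted p = 0.83), and without the low-RIN libraries the week 14 change was -0.65 and not called.

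Gfra2, the co-receptor that presents neurturin to Ret, had the lowest estimate of all members at week 10. It measured 12.3, 15.7 and 18.7 CPM in WT, 15.1, 12.2 and 17.7 (week 6), 12.4, 5.08 and 3.52 (week 8), 0.576, 2.22 and 2.71 (week 10), 2.61, 3.93 and 4.91 (week 12), and 9.01, 1.19 and 0.727 (week 14). The week 10 and 12 mice were all below the lowest week 6 mouse, and at week 14 replicate 1 stood above the others. The log2 change was -3.02 at week 10 (SE 0.79, adjusted p = 0.0188 in edgeR), 8.12-fold lower than at week 6.

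Ednrb, the endothelin receptor whose loss leaves the distal gut without ganglia, measured 12.6, 18 and 15.6 CPM in WT, 22.5, 16.7 and 16.1 (week 6), 15.6, 6.73 and 5.18 (week 8), 6.11, 3.31 and 4.73 (week 10), 4.84, 3.42 and 6.85 (week 12), and 15.3, 3.87 and 2.8 (week 14). It fell by 1.97 on the log2 scale at week 10 (SE 0.55, adjusted p = 0.025 in edgeR), with no overlap. Gfra1, the co-receptor for GDNF itself, had a log2 change of -2.0 at week 10 that was not called (SE 0.82, adjusted p = 0.0783 in edgeR), although its week 10 values of 0.807 to 2.89 CPM lay below the 6.45 to 9.86 CPM of week 6. Among 14 tested ligands and partners of these receptors 2 fell at week 10 and none rose, where 9.48% of all genes fell, and without the low-RIN libraries 4 fell, against 26.8% of all genes. Those were Erbb2, the partner of Erbb3, at 199 CPM at week 6 and 65.9 CPM at week 10 (log2 change -1.59, SE 0.52, adjusted p = 0.0395 in edgeR), and Gas1, which binds Ret (log2 change -2.02, SE 0.7, adjusted p = 0.0474 in edgeR).

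Among the 5 glial genes, only Sox10 was called lower at week 10, where 9.48% of all genes were. Without the low-RIN libraries 4 of the 5 were called lower, all but Gfap, against 26.8% of all genes. Sox10 (chr15:79154908-79165240, minus strand) is the transcription factor that sets and keeps glial identity, and it measured 5.48, 4.84 and 6.78 CPM in WT, 3.89, 4.39 and 3.35 (week 6), 3.84, 1.53 and 1.55 (week 8), 0.269, 0.649 and 1.02 (week 10), 1.17, 1.09 and 1.02 (week 12), and 2.63, 1.37 and 0.0 (week 14). The knockout groups of weeks 10, 12 and 14 did not overlap week 6, and the 0 in replicate 3 of week 14 allows up to 3 counts. The log2 change was -2.56 at week 10 (SE 0.83, adjusted p = 0.0379 in edgeR) and -1.82 at week 12 (SE 0.8, adjusted p = 0.138 in edgeR). Gfap did not follow it. Gfap measured 4.13, 4.27 and 3.95 CPM (week 6), 3.38, 4.13 and 5.3 (week 10), 7.31, 2.84 and 3.7 (week 12), and 5.8, 2.25 and 3.17 (week 14), so that every knockout age overlapped week 6. Its log2 change was 0.05 at week 10 with an SE of 0.43.

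Erbb3 measured 367, 269 and 348 CPM in WT, 276, 217 and 281 (week 6), 215, 221 and 261 (week 8), 87.8, 119 and 182 (week 10), 169, 153 and 131 (week 12), and 201, 44 and 49.3 (week 14). The week 10, 12 and 14 mice all lay below week 6, and the call came at week 14 (log2 change -1.39, SE 0.45, adjusted p = 0.0305 in edgeR), where the lowest values were the 2 low-RIN libraries. Without them the week 14 change was -0.37, and with the length offset -0.45, neither called. Cdh19, a cadherin of the glial lineage, had a log2 change of -1.32 at week 10 (SE 0.67). S100b, a calcium-binding protein of glia, had one of -1.08 (SE 0.55), and neither was called with all libraries. Cdh19 ranged from 1.06 to 1.46 CPM at week 10 and from 3.26 to 3.35 CPM at week 6, and S100b from 0.423 to 0.887 and 0.98 to 1.96 CPM. Of 14 other glial genes, 6 fell at week 10 and none rose, with a median log2 change of -1.55 over the list, against the 9.48% of all genes that fell. When the low-RIN libraries were left out 10 of them fell, against 26.8% of all genes. Gap43, a growth-associated protein, measured 7.37 ± 0.239 CPM (SD, n = 3) at week 6 and 2.44 ± 0.982 CPM at week 10. Ncam1, a neural adhesion molecule, measured 8.49 ± 0.501 and 1.7 ± 1.39 CPM, and Entpd2, an ectonucleotidase on enteric glia, 35.0 ± 2.38 and 20.0 ± 4.87 CPM.

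The transmitter genes split. Nos1, which makes nitric oxide in inhibitory motor neurons, measured 10.5, 12.9 and 21.4 CPM in WT, 12, 13.5 and 12.2 (week 6), 9.01, 3.1 and 7.55 (week 8), 0.807, 1.13 and 5.12 (week 10), 1.63, 1.35 and 1.78 (week 12), and 6.74, 1.19 and 0.415 (week 14). Each older knockout group lay wholly below week 6, and week 12 was the tightest. The log2 change was -2.41 at week 10 (SE 0.8, adjusted p = 0.0424 in edgeR), -2.98 at week 12 (SE 0.82, adjusted p = 0.0716 in edgeR) and -2.13 at week 14 (SE 0.79, adjusted p = 0.0499 in edgeR), where it was -0.9 without the low-RIN libraries and -1.2 with the length offset, neither called. Chat, the enzyme of acetylcholine synthesis, was barely detected, at 0.221 to 0.306 CPM at week 6 and 0.0 to 0.0903 CPM at week 10. It was not called with all libraries. Vip, the peptide that partners nitric oxide in the same neurons, measured 21.2, 30.5 and 26.4 CPM in WT, 30.6, 32.5 and 29.7 (week 6), 42.8, 17.8 and 17.7 (week 8), 21.3, 16.6 and 16.3 (week 10), 16.1, 26 and 17.9 (week 12), and 27.6, 40.4 and 48.8 (week 14). By CPM all 3 Vip values were low at week 10 and the 2 low-RIN mice held the high ones at week 14. The log2 changes were -0.77 (SE 0.32, adjusted p = 0.084 in edgeR) and 0.33 (SE 0.32), neither called with all libraries. By TPM week 14 lay below week 6 instead, at 18.8 ± 8.84 against 34.6 ± 0.654 (SD, n = 3). Without the low-RIN libraries edgeR called Vip (-0.83, adjusted p = 0.0379) and Chat (-2.24, adjusted p = 0.0209) lower at week 10, as it did 26.8% of all genes.

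Tac1 (chr6:7554879-7565834, plus strand, GENCODE M21 on GRCm38, the mm10 build), the precursor of substance P and neurokinin A, was the one member that rose. It measured 14.2, 14.6 and 15.6 CPM in WT, 12.5, 28.1 and 20.1 (week 6), 21.1, 18.1 and 17.1 (week 8), 496, 92.5 and 67.9 (week 10), 33, 19.8 and 26.3 (week 12), and 15.5, 679 and 683 (week 14). All 3 mice of week 10 stood above every week 6 mouse, with replicate 1 far above the others, and week 12 overlapped week 6. At week 14 replicates 2 and 3 were the highest libraries of all by CPM, while by TPM replicate 1 of week 10 was highest (578 against 323 and 428), and replicate 1 of week 14 lay inside the week 6 range. The log2 change, which in edgeR follows the group means, was 3.43 at week 10 (SE 0.95, adjusted p = 0.0234 in edgeR) and 4.50 at week 14 (SE 1.0, adjusted p = 0.00636 in edgeR). Without the low-RIN libraries it was 3.37 at week 10 (SE 0.59) and -0.39 at week 14.

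The size of the Tac1 rise depended on 1 mouse and on the scale, and its call at week 10 on the week 6 mice too. Without replicate 1 of week 10 the log2 change was 1.98 (adjusted p = 0.147 in edgeR), without any 1 week 6 mouse its adjusted p was 0.063 to 0.09 in edgeR, and on log2(TPM + 1) in limma it was 2.22 (adjusted p = 0.0516) at week 10 and 1.91 (adjusted p = 0.0421) at week 14. The same 3 high libraries also held the highest sums of a list of 7 neutrophil genes, at 5050 CPM in replicate 1 of week 10 and 15300 and 9970 CPM in replicates 2 and 3 of week 14, against 3.29 to 5.2 CPM at week 6; the part of those cells in the result was not tested. Enteroendocrine cells of the epithelium can also make Tac1, and their 14 marker genes summed to 403, 749 and 688 CPM at week 10 and 707, 1120 and 1020 CPM (week 14), against 707 to 769 CPM (week 6). The enteroendocrine sum was low in the week 10 mouse with the most Tac1 and high in the 2 week 14 mice with more still by CPM. Its markers went both ways at week 10, where Cck (log2 change 4.98, adjusted p = 0.01 in edgeR) and Gcg (1.04, adjusted p = 0.0172 in edgeR) rose and Chga (-1.62, adjusted p = 0.0396 in edgeR) and Cpe (-1.72, adjusted p = 0.0442 in edgeR) fell. At week 14 Cck, Sct, Gcg, Pyy and Insl5 rose and Chga fell, where 24.5% of all genes rose and 8.56% fell. Those calls include the 2 low-RIN libraries, without which week 14 is 1 mouse. The median log2 change of the enteroendocrine list at week 14 was -0.3 with all libraries and -0.17 without those 2. No marker of that list was at 0 in any group, and the part of these cells in the Tac1 change was not tested. A pair of transcripts carried most of the Tac1 signal in every library. Tac1-205 made up 35.4 to 48.0% of the gene's TPM at week 6 and 50.6 to 56.4% at week 10, and Tac1-203 made up 48.8 to 61.0% and 43.5 to 48.2%.

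The other peptides did not share the rise at week 10. Gal (galanin) measured 0.751 to 1.66 CPM at week 10 and 1.59 to 2.29 CPM (week 6), Npy (neuropeptide Y) 0.171 to 0.512 and 0.979 to 1.17 CPM, and Cartpt, the precursor of the CART peptide, 0.662 to 0.961 and 0.887 to 1.45 CPM. Only Npy was free of overlap, and with all libraries none of the 3 was called at any age by edgeR. With the 2 libraries of low RIN left out, edgeR called Npy lower at week 10 (log2 change -1.81, adjusted p = 0.0271) and Gal lower at week 12 (-1.05, adjusted p = 0.0329), and with the length offset it called Npy lower at week 10 and Gal lower at weeks 10, 12 and 14. In the low-RIN mice of week 14 Gal (2.25 and 3.12 CPM), Cartpt (2.06 and 2.6 CPM) and Npy (2.68 and 0.987 CPM) again stood above replicate 1 of that week. By TPM the week 14 means lay below those of week 6. They were 2.32 against 5.35 for Gal, 1.25 against 2.18 for Cartpt and 2.69 against 5.37 for Npy. A list of 17 genes held receptors and effectors for these transmitters, and also the peptide gene Adcyap1. Of the 17, 8 fell at week 10 and none rose, where 9.48% of all genes fell, and 14 fell without the low-RIN libraries, against 26.8%. Chrm1, a muscarinic receptor, fell from 8.38 ± 0.461 CPM (SD, n = 3) at week 6 to 0.86 ± 0.585 CPM at week 10, Npy1r, a receptor for Npy, from 17.0 ± 1.0 to 4.91 ± 1.77 CPM, and Gucy1a1, a subunit of the nitric oxide receptor, from 27.2 ± 4.29 to 6.88 ± 2.87 CPM. The receptors of the Tac1 peptides, Tacr1, Tacr2 and Tacr3, were not called at week 10, with log2 changes of -0.71, -1.23 and -1.97.

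**Figure D3:**
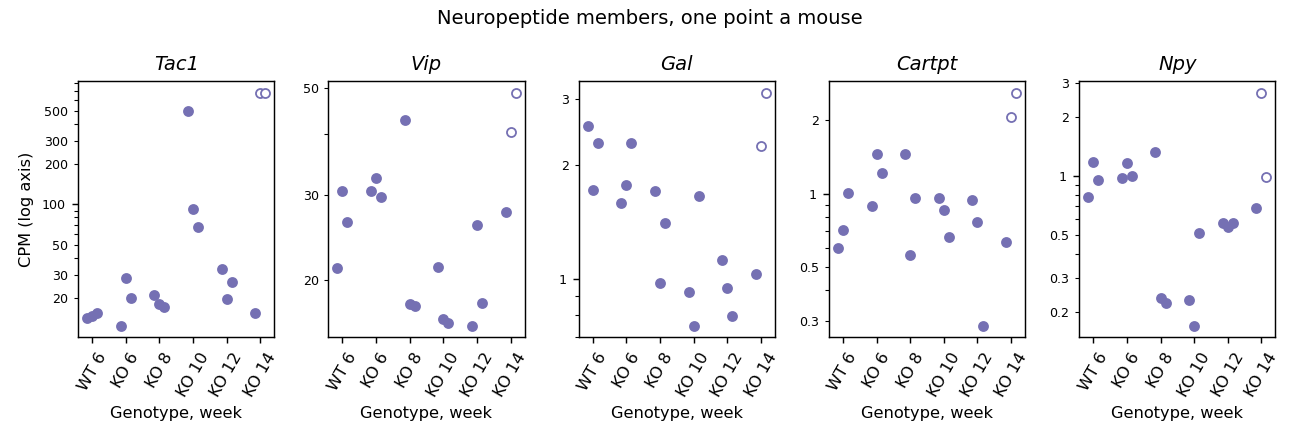
CPM (log axis) of the 5 neuropeptide members in each mouse, by genotype and week; open points are the 2 low-RIN libraries of week 14. Tac1 stands above its week 6 range in all 3 week 10 mice and in both open points, and Vip, Gal, Cartpt and Npy do not exceed theirs at week 10.

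Because Tac1 and Vip parted at week 10, the bases just upstream of their outermost annotated starts are shown (RefSeq promoter sequences, GRCm38.p6, plus strand of both genes, cut at the GENCODE M21 start). Capitals mark TGACG searched on both strands (CGTCA where it reads on the reverse strand), which does not overlap another motif here. It is the half-site of the cyclic AMP response element, through which Vip is known to respond. The Tac1 stretch is chr6:7554811-7554878 and the Vip stretch chr10:5638968-5639217.
Tac1: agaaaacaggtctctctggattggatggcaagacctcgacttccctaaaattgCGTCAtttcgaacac
Vip: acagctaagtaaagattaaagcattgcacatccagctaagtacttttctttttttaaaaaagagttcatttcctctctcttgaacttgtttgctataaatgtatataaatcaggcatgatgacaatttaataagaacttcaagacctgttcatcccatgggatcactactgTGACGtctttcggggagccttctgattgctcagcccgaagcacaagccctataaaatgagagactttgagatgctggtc
The motif lay in both, beginning 15 bases before the end of the window on the reverse strand in Tac1 and 79 bases before it on the forward strand in Vip. Among 32851 promoters, 3.45% held it in a window of the Tac1 length and 17.8% in one of 250 bases. The letters were not found in the 250 bases before Gal or Npy.

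Of the 6 cytoskeletal genes of neurons 4 fell at week 10, where 9.48% of all genes fell. All 6 lay below week 6 without overlap, as 30.3% of all genes did. Without the low-RIN libraries all 6 fell, against 26.8% of all genes. Stmn3, a stathmin that regulates microtubules, measured 4.56, 5.56 and 6.22 CPM in WT, 5.54, 4.58 and 5.51 (week 6), 3.36, 2.75 and 2.81 (week 8), 1.88, 3.0 and 2.77 (week 10), 2.61, 2.22 and 2.2 (week 12), and 4.06, 2.87 and 3.9 (week 14). Every later mouse lay below week 6, and the log2 change was -1.03 at week 10 (SE 0.26, adjusted p = 0.0163 in edgeR) and -1.15 at week 12 (SE 0.26, adjusted p = 0.0402 in edgeR). Its relative Stmn2 measured 17.7, 25.5 and 23 CPM in WT, 24, 20.3 and 21.4 (week 6), 21.5, 9.39 and 7.47 (week 8), 4.77, 10.5 and 7.32 (week 10), 12.1, 13.3 and 9.27 (week 12), and 20.5, 14.5 and 9.97 (week 14). Week 10 held the low values and weeks 8 and 14 overlapped week 6, and the week 10 change was -1.54 (SE 0.39, adjusted p = 0.0162 in edgeR).

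Prph, the peripheral nerve intermediate filament peripherin, measured 17.8, 16.5 and 19.9 CPM in WT, 12.6, 13.2 and 14.3 (week 6), 11.9, 5.2 and 7.29 (week 8), 1.46, 4.3 and 7.95 (week 10), 3.18, 2.44 and 3.7 (week 12), and 8.19, 2.06 and 2.8 (week 14). The later groups all lay below week 6, with log2 changes of -1.55 at week 10 (SE 0.54, adjusted p = 0.0474 in edgeR) and -1.60 at week 14 (SE 0.54, adjusted p = 0.0352 in edgeR). The week 10 call ended with the length offset (-1.84, adjusted p = 0.0529 in edgeR), and the week 14 change was -0.71 without the low-RIN libraries. Nefm, the middle neurofilament subunit, measured 6.44, 5.72 and 7.42 CPM in WT, 5.63, 6.67 and 7.52 (week 6), 5.36, 2.48 and 4.22 (week 8), 0.653, 1.23 and 2.23 (week 10), 3.07, 1.64 and 3.6 (week 12), and 5.01, 1.06 and 0.364 (week 14). Nefm was lowest at week 10, where it fell by 2.26 on the log2 scale (SE 0.68, adjusted p = 0.0309 in edgeR). Nefl, the light subunit, and Tubb3, neuronal beta-tubulin, had log2 changes of -1.53 and -1.52 at week 10. With all libraries neither was called, though neither overlapped week 6. Nefl ranged from 2.61 to 5.78 CPM at week 10 and from 9.73 to 14 CPM at week 6, and Tubb3 from 1.65 to 5.78 and 8.69 to 9.45 CPM.

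Among the RNA-binding, transcription and pan-neuronal genes, Uchl1 had the smallest adjusted p of all members at week 10. Uchl1 (chr5:66676091-66687234, plus strand), an abundant neuronal deubiquitinase that endocrine cells also make, measured 23.3, 22.8 and 27.4 CPM in WT, 21.5, 21.4 and 20.7 (week 6), 18.6, 9.92 and 11.5 (week 8), 5.96, 9.35 and 10.8 (week 10), 11.5, 9.78 and 9.08 (week 12), and 17.6, 10.8 and 14 (week 14). The tight week 6 group stood above every later mouse, and the change at week 10 was -1.28 (SE 0.27, adjusted p = 0.00874 in edgeR). Uchl1 was also the single member still called when replicate 1 of week 10 was left out (log2 change -1.07, adjusted p = 0.0348 in edgeR).

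Elavl4 (HuD), which binds neuronal mRNAs, measured 3.09, 4.08 and 5.66 CPM in WT, 4.19, 4.17 and 4.26 (week 6), 4.06, 1.48 and 2.26 (week 8), 0.5, 1.6 and 1.99 (week 10), 1.2, 1.09 and 1.18 (week 12), and 3.48, 1.12 and 1.19 (week 14). It fell by 1.62 on the log2 scale at week 10 (SE 0.52, adjusted p = 0.0384 in edgeR), and no later mouse reached the week 6 values. Hand2, a transcription factor of neurons and of gut mesenchyme, measured 19.1, 16.3 and 19.9 CPM in WT, 14.6, 12.9 and 14.7 (week 6), 12.2, 7.65 and 7.47 (week 8), 2.5, 7.07 and 8.43 (week 10), 12, 6.43 and 8.03 (week 12), and 12.6, 4.93 and 8.26 (week 14). Every later mouse was below week 6, and Hand2 fell by 1.23 at week 10 (SE 0.41, adjusted p = 0.042 in edgeR). Elavl3 (HuC) had a log2 change of -2.29 and just missed the threshold (SE 0.82, adjusted p = 0.0515 in edgeR), with 1.74 to 2.31 CPM at week 6 and 0.154 to 0.662 CPM at week 10.

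Phox2a, a transcription factor of autonomic neurons, behaved differently in time. It measured 1.95, 1.83 and 2.21 CPM in WT, 1.28, 1.11 and 1.35 (week 6), 1.81, 1.0 and 1.11 (week 8), 0.615, 1.64 and 1.17 (week 10), 0.201, 0.509 and 0.382 (week 12), and 1.03, 1.62 and 0.364 (week 14). Week 10 overlapped week 6, and week 12 lay below both. The week 12 change against week 6 was -1.78 (SE 0.52, adjusted p = 0.0794 in edgeR), and against week 10 it was -1.65 (SE 0.52, adjusted p = 0.151 in edgeR), which DESeq2 called and edgeR called without the low-RIN libraries (-1.66, adjusted p = 0.0376 in edgeR).

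Of the 6 vesicle, adhesion and nicotinic receptor genes, Snap25 and Chrna3 fell at week 10, where 9.48% of all genes fell. Without the low-RIN libraries all 6 fell, against 26.8% of all genes. Chrna3, the nicotinic subunit that carries fast transmission between enteric neurons, measured 4.44, 4.08 and 7.37 CPM in WT, 4.19, 5.41 and 4.45 (week 6), 4.19, 1.42 and 3.11 (week 8), 0.346, 0.887 and 2.2 (week 10), 1.03, 0.545 and 1.12 (week 12), and 3.32, 0.874 and 0.571 (week 14). No mouse of weeks 10, 12 or 14 reached the week 6 range, and the log2 change was -2.02 at week 10 (SE 0.67, adjusted p = 0.0417 in edgeR) and -2.37 at week 12 (SE 0.68, adjusted p = 0.0759 in edgeR). The gene-level count of Chrna3 differed from the sum of its annotated transcripts by up to 254 counts in a library, so its level is less certain than that of the other members.

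Snap25, a SNARE protein of synaptic vesicle release, measured 9.14, 8.27 and 9.81 CPM in WT, 7.86, 10.3 and 8.11 (week 6), 9.99, 4.4 and 6.59 (week 8), 4.57, 3.31 and 5.15 (week 10), 5.04, 5.02 and 4.81 (week 12), and 7.11, 3.68 and 5.87 (week 14). It fell by 1.01 at week 10 (SE 0.31, adjusted p = 0.0318 in edgeR). Syp (synaptophysin) measured 10.3, 7.69 and 9.17 CPM in WT, 8.29, 5.94 and 7.77 (week 6), 5.3, 5.17 and 4.22 (week 8), 1.92, 2.83 and 4.64 (week 10), 5.16, 3.2 and 3.63 (week 12), and 5.35, 1.25 and 1.82 (week 14). It fell at week 14, where all 3 mice lay below week 6 and the 2 low-RIN mice lowest (log2 change -1.36, SE 0.45, adjusted p = 0.0324 in edgeR; -0.46 without the low-RIN libraries). Syt1, the calcium sensor of release, had a week 10 log2 change of -2.15. L1cam, a neural adhesion molecule that other cells also make, had one of -1.63, and Scg2, a granin, one of -1.05. With all libraries none of these was called. Syt1 ranged from 0.884 to 3.49 CPM at week 10 and from 8.26 to 11 CPM at week 6, and Scg2 from 4.46 to 12.3 and 16.2 to 19.7 CPM, again without overlap. L1cam measured 54.2, 62.8 and 63.7 CPM in WT, 50.7, 74.1 and 63.1 (week 6), 50.5, 25.8 and 64 (week 8), 8.15, 14.1 and 38.2 (week 10), 19.7, 17.2 and 26.5 (week 12), and 53.8, 3.18 and 3.17 (week 14). Its week 10 mice spread widely, and its SE of 0.83 was among the largest. Of 39 other neuronal genes tested, 7 fell at week 10 and none rose, with a median log2 change of -1.38, against the 9.48% of all genes that fell. With the low-RIN libraries left out 28 of them fell, against 26.8% of all genes. Ddc, which makes dopamine and serotonin and is also made by epithelium, fell from 129 ± 10.5 CPM (SD, n = 3) at week 6 to 27.0 ± 9.75 CPM at week 10, Nmu (neuromedin U) from 2.33 ± 0.367 to 0.632 ± 0.182 CPM, and Eno2, neuronal enolase, from 8.67 ± 1.05 to 3.06 ± 0.842 CPM.

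Neurons and glia were set against each other by subtracting the median log2 change of the 5 glial members from that of the 24 neuronal members, as a description without a test. The difference was 0.34 for Il10KO against WT at week 6, and against week 6 of the knockout it was 0.13 (week 8), -0.44 (week 10), -0.57 (week 12) and 0.12 (week 14). Without the low-RIN libraries the week 14 value was -0.35, from 1 mouse. The same difference in single libraries ran from -0.56 to 0.09 at week 10, from -0.61 to -0.26 at week 12 and from -0.32 to 0.69 at week 14, against -0.1 to 0.08 at week 6. All 3 mice of week 12 thus lay below all 3 of week 6 of the knockout, and weeks 10 and 14 overlapped it. The 3 WT mice had -0.55, -0.09 and -0.15, which overlapped week 12. In the wider lists the order was the other way, with medians of -1.38 for 39 other neuronal genes and -1.55 for 14 other glial genes at week 10, and -1.13 and -1.52 at week 12. Glial medians rest on few genes, and Gfap, at 0.05, and Sox10, at -2.56, stood at opposite ends of the class at week 10.

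**Figure D4:**
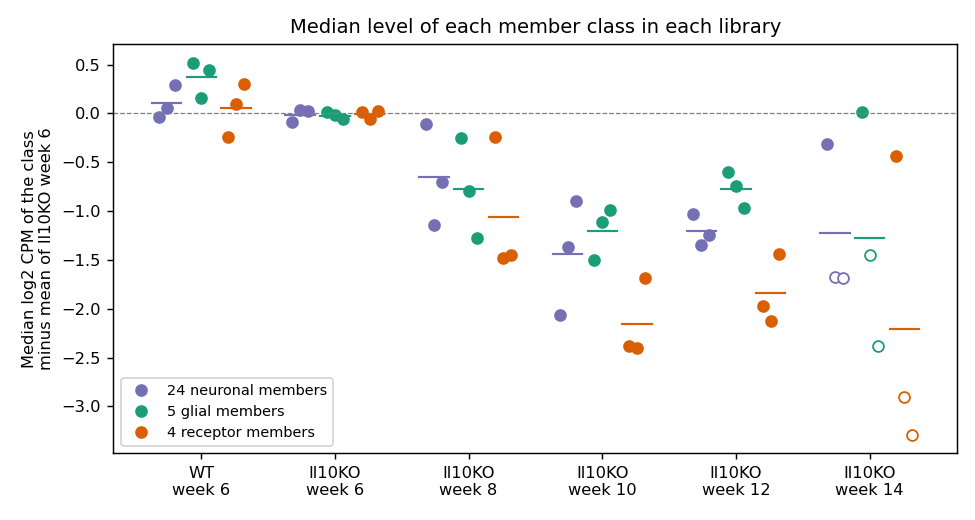
Median log2 CPM of the 24 neuronal (purple), 5 glial (green) and 4 receptor (orange) members in each mouse, minus the mean of Il10KO week 6; lines are the means of 3 mice and open points the 2 low-RIN libraries. Receptor medians at week 10 lie between -2.4 and -1.69, and the week 14 mice fall apart into 1 near 0 and 2 far below it.

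Other constituents of the colon wall moved at the same time. At week 10 the 4 interstitial cell of Cajal genes had a median log2 change of -1.70, with 2 called lower, and their summed CPM was 120, 236 and 442 against 869 to 1020 at week 6. The 9 fibroblast and matrix genes had a median of -1.63 with 7 lower, the 11 endothelial genes -1.43 with 4 lower, and the 7 adipose genes -2.66 with 2 lower. From lowest to highest, the adipose genes summed to 21.6, 30.0 and 91.2 CPM at week 6, with the highest mouse far above the others. At week 10 they summed to 4.23 to 8.67 CPM. The 13 smooth muscle genes had a median of -0.94 with none called, and the 10 epithelial genes -0.02 with 2 called higher, where 9.48% of all genes fell and 14.6% rose. All 4 Cajal genes, 7 fibroblast, 9 endothelial, 6 adipose and 6 smooth muscle genes fell without the low-RIN libraries, and of the epithelial genes 2 rose and 2 fell, against 26.8% of all genes lower and 24.6% higher. Smooth muscle genes summed to 1670, 6540 and 7110 CPM in the 3 mice of week 10 and to 8570 to 9420 CPM at week 6, and replicate 1, the lowest, was also the mouse with the lowest neuronal median (-2.06). No gene of these lists was at 0 counts in a whole group, and the part of tissue makeup in the members' changes was not tested.

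Transcript length moved with the changes too. Across the 33 members, which are not independent, the log2 change correlated with log10 transcript length at r = -0.46 at week 10, -0.55 at week 12 and -0.65 at week 14, and across 16064 genes at -0.36, -0.46 and -0.53. Within a length class the members still lay below the rest at week 10. Of genes of 1000 to 2000 bases the 10 members had a median of -1.05 and all genes 0.41, and of genes of 3000 to 4500 bases the 8 members had -1.80 and all genes -0.34. When each library's trend on length was added to the edgeR fit as an offset, 18 members fell and 1 rose at week 10, and 4 fell at week 12 (Nos1, Gal, Stmn3 and Phox2a, named after their values were seen). In that fit 12.1% of all genes fell and 19.5% rose at week 10, and 1.21% fell at week 12. TPM values shift the median of all genes to -0.34 at week 10, -0.36 at week 12 and -0.74 at week 14 on the log2(TPM + 1) scale, where the members' medians were -1.35, -1.28 and -1.39.

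**Figure D5:**
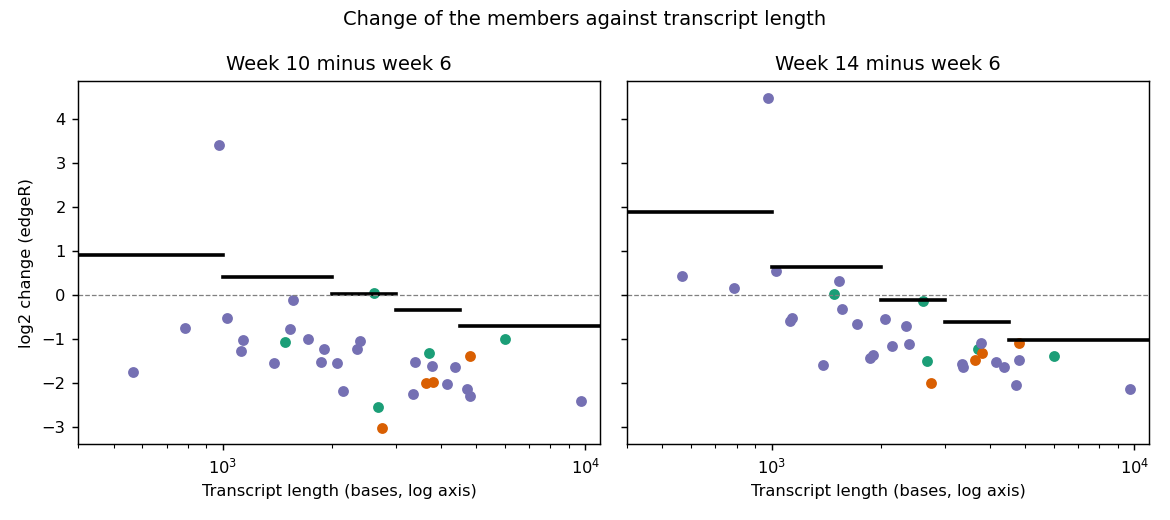
Log2 change of each member (points; green glial, orange receptor, purple neuronal) at weeks 10 and 14 against week 6, by transcript length on a log axis, with the median of all genes in 5 length classes (black bars). At week 10 most members lie below the bar of their class, while at week 14 short members such as Npy and Gal lie near 0 and Tac1 lies at 4.50.

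Within an age, no member was called on lipocalin. With age in the model, the change per 10-fold lipocalin was called in 0 of 32 members tested by edgeR, where 0.0% of all genes were called, no member had an unadjusted p of 0.05 or less, and DESeq2 called 0. The slopes were negative in 27 of the 32 members, and the lowest was -2.82 per 10-fold lipocalin for Syt1 (SE 1.53, adjusted p = 0.888 in edgeR). With 3 mice an age, slopes of this size could not be told from 0. The unadjusted values rested on replicate 2 of week 12: without it 11 of the 32 members had an unadjusted p of 0.05 or less in edgeR, as did 4614 of 16261 genes, none of the members was called, and the members' median slope was -2.32 where it was -0.94 with all libraries. With the replicate number as a block or cage as a factor 8 members had such a p. So did 2432 genes with the block and 3880 with cage, of 16182. Median slopes of the members were -1.45 and -1.64, and again no member was called. Other refits gave flatter median slopes of the members. These were -0.23 without the 2 low-RIN libraries, -0.15 with RIN as a covariate and -0.26 in voom with a weight per group. Leaving out replicate 1 of week 14 gave -0.23. The size of the slope thus depended on the fit and on single libraries.

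Members, genes of low mean level and genes without a standard symbol were left out before genes were ranked on the glial and neuronal means. The genes that followed those means most closely over the 18 libraries were in none of the nervous system lists used here. For the glial mean they were Cul9 (Pearson r = 0.984), Gid4 (0.978), Ston1 (0.975), Zbtb16 (0.969) and Kcnf1 (0.969), and for the neuronal mean Vwf (0.973), Dpysl3 (0.972), Scg3 (0.968), Tnc (0.968) and Adra2a (0.968). Vwf, which stands in the endothelial list, is the von Willebrand factor, Tnc a matrix protein and Scg3 a granin. These values describe shared variation over libraries that also share depth, RIN and tissue makeup, and carry no test.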

How the data were processed

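Distal colon RNA of 18 mice in 6 groups was analysed from gene tables that the authors made with kallisto against mm10, per the submitters' processing notes. The deposited gene table holds estimated counts as whole numbers, with every gene reaching a total of at least 50, and a second deposited table holds TPM. The annotation release is not given in the sources used here. Transcript tables were matched to GENCODE M21 for lengths and positions. PolyA RNA was sequenced, per the labels.

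Counts were filtered (filterByExpr, minimum count 10), scaled by TMM and fitted in edgeR 4.0.16 with 1 mean for each group. Calls use a quasi-likelihood F-test with Benjamini-Hochberg adjustment over all 16300 genes at 0.05. The 3 libraries of a group are 3 mice. Alternatives used DESeq2 1.42.0, limma 3.58.1 on log2(TPM + 1) and log2(TPM + 0.1), other filters, covariates and left-out libraries. The scripts were tested on simulated data. Members and lists were chosen with earlier results of these data known. Members called against week 6 or across ages were described in full, 15 of them by smallest adjusted p; Hand2 and Nos1, called but past that number, were given too, as was the highest-TPM member of each class. Of other lists the 3 called genes of smallest p at week 10 were named. Tacr1, Tacr2, Tacr3, Phox2a, Vip, Gal, Npy, Cartpt and Gfap were singled out after their values were seen.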

Additional observations from a re-analysis of the deposited data

How the results depend on the processing

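The 23 member changes called at weeks 10, 12 or 14 kept their direction under the alternatives that could be fitted, except Tac1 at week 14 without the 2 low-RIN libraries (-0.39). Of 449 such refits 286 kept the call and 162 lost it, 99 of these with 1 library left out. Members called at weeks 10, 12 and 14 against week 6 and across ages, which were 15, 2, 6 and 9, became 23, 14, 14 and 24 in DESeq2, with 1 at week 8 and 2 at week 12 against 10. They were 27, 22, 0 and 21 with RIN as a covariate (1 at week 12 against 10), 0, 0, 0 and 0 with cage as a factor, 27, 30, 2 and 30 in voom with a weight per group, and 24, 28, 0 and 2 with only the groups compared. All genes moved too: the shares called were 24, 1.85, 33.1 and 27.4%, and became 36.5, 15.4, 46.9 and 50.4% in DESeq2, 46.5, 35.3, 0.0 and 37.4% with RIN, 43.1, 61.9, 8.45 and 60% in voom, and 40.1, 59.0, 0.0 and 13.2% with only the groups compared. Limma gave 24, 10, 28 and 27 on log2(TPM + 1), against 19.9, 4.07, 60 and 41.5% of all genes. On log2(TPM + 0.1) it gave 0 at week 12, 29 at week 14 and 25 across ages, against 0.84, 61.8 and 37.8%. Without the low-RIN libraries they were 29, 26, 0 and 26 (2 at week 12 against 10). Chosen after seeing the data, leaving out all 3 week 14 libraries gave 29, 26 and 2 (week 12 against 10), against 51.6, 41.3 and 6.78% of all genes. The length offset, also chosen then, gave 4 at week 12 and 14 across ages, against 3.55 and 27.3%. Leaving out single libraries gave 1 to 21 calls at week 10, 0 at week 12, 1 to 24 at week 14 and 1 to 31 across ages, and 0 for WT, week 8, week 12 against 10 and the slope. The cause of these shifts was not tested. With cage as a factor edgeR called 2 of all genes at week 10. Cage could not be fitted for WT, whose mice share 1 cage, and the length offset was not run for the slope. Where leaving out a library left 2 mice, the spread came from all groups.

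Neuron minus glia moved to 0.23 for WT and reversed to -0.56 at week 14 on log2(TPM + 1), and moved to -0.35 at week 12 on log2(TPM + 0.1). With single libraries left out it ran from 0.07 to 0.46 for WT, -0.1 to 0.38 at week 8, -0.53 to -0.17 at week 10, -0.82 to -0.42 at week 12 and -0.08 to 0.64 at week 14. Without the low-RIN libraries, recomputed after seeing the data, it was -0.35 at week 14.

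With the replicate number as a block, edgeR called 11, 1, 9 and 8 members at weeks 10, 12, 14 and across ages. The shares of all genes were 18.7, 1.52, 34.5 and 20.9%. Neuron minus glia, recomputed with the block after seeing the data, was 0.43 for WT. The block ended the calls of Sox10, Prph, Elavl4 and Hand2 at week 10 and of Stmn3 at week 12. The numbers do not pair the mice: deviations of same-numbered mice correlated between -0.246 and 0.237.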
